A study of Mus musculus with 2 samples.

Results

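The subject is the set of genes that presents peptides on MHC class I molecules, described across the cell classes of mouse lungs that carried 4T1 cells. Its 10 members are H2-K1, H2-D1, B2m, Tap1, Tap2, Tapbp, Psmb8, Psmb9, Psmb10 and Nlrc5, taken as the entries of the deposited gene lists that bear these symbols. All 10 were found, each under 1 Ensembl ID, among 27998 genes. They held 108453 UMIs, or 1.07% of all UMIs, in the Cherry_Positive library and 105949 UMIs, or 0.911%, in the Cherry_Negative library. A UMI (unique molecular identifier) stands for 1 captured transcript.

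Proteasomes cut cellular proteins into peptides, and in cells that respond to interferon the catalytic subunits encoded by Psmb8, Psmb9 and Psmb10 take the place of the constitutive subunits Psmb5, Psmb6 and Psmb7 to form the immunoproteasome. The Tap1 and Tap2 transporter carries peptides into the endoplasmic reticulum, where tapasin (Tapbp) helps load them onto a heavy chain (H2-K1 or H2-D1) paired with beta-2 microglobulin (B2m). Nlrc5 is a transcriptional activator of these genes. Class I molecules let cytotoxic T cells read the protein content of a cell, and lung stromal, endothelial and epithelial cells all carry them.

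The cells came from dissociated lungs collected 7 days after Labelling-4T1 cells were given intravenously, were CD45-, and were sorted by flow cytometry. 4T1 is a mouse mammary carcinoma line derived from the BALB/c strain, and its labelling version is known to release a red fluorescent protein that neighbouring cells take up. The study has 2 groups, Cherry_Positive and Cherry_Negative, with 1 library of Chromium 3' single-cell RNA sequencing each. Genotype, strain, sex and age, any irradiation of the mice, the number of lungs pooled, whether both libraries came from the same lungs, and whether 4T1 cells were gated out are not stated in the labels. With 1 library per group there are no replicates and no test. Each interval given is a 95% interval for counting error only, and each difference is one between these libraries. Levels are CPM, the UMIs of a gene per 1000000 UMIs of all cells of a class summed.

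The libraries held 1826 and 2861 barcodes and 10094853 and 11632459 UMIs, and 1766 and 2804 cells were kept. The libraries shared 13 barcodes. Median depth per kept cell was 4348 UMIs in Cherry_Positive and 3000.5 in Cherry_Negative. Clustering gave 23 clusters, of which 22 were named by markers as 16 classes, each called X-like. Of these, 6 classes had at least 50 cells in each library. Surfactant transcripts, the product of alveolar type 2 cells, are a sign of free RNA in other classes. They summed to between 143 and 183 CPM in the 6 classes of Cherry_Positive and to between 1613 and 2356 in those of Cherry_Negative. Their level also depends on how many alveolar type 2-like cells a library held, 22 in Cherry_Positive and 448 in Cherry_Negative. The gap therefore does not give the amount of free RNA in each library. Summed markers of leukocytes stayed between 5.40 and 34.5 CPM in the 6 classes, with the highest value in the pericyte-like cells of Cherry_Positive. Of the 8 leukocyte markers, 4 were above 0 in those pericyte-like cells and 5 in carcinoma-like cells of Cherry_Positive. Ptprc, which encodes CD45, was at 0 in the pericyte-like and carcinoma-like cells. With 5% of each cell class taken as free RNA of the library's own profile and subtracted, the median log2 ratio between libraries was 1.36 in alveolar fibroblast-like, 1.33 in myofibroblast-like, 1.30 in pericyte-like and 0.50 in general capillary-like cells, close to the values without subtraction.

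The members are drawn from a few places in the genome. In mm10 (GENCODE M21), H2-K1 spans chr17:33996017-34000347 on the minus strand and H2-D1 spans chr17:35262730-35267499 on the plus strand. Tapbp (chr17:33915899-33929292), Psmb9 (chr17:34181987-34187764), Tap1 (chr17:34187553-34197225), Psmb8 (chr17:34197721-34201454) and Tap2 (chr17:34203527-34216321) lie between or beside them in the major histocompatibility complex. B2m is on chromosome 2 (chr2:122147686-122153083), and Psmb10 (chr8:105935735-105938444) and Nlrc5 (chr8:94434356-94527272) are on chromosome 8. Tapbp overlaps Zbtb22 on the same strand, and all members but H2-K1 and H2-D1 overlap a gene on the opposite strand. Within the last 500 bases of the transcripts, where 3' reads fall, H2-K1 and H2-D1 shared 0.443% of the 50-base words of H2-K1, and 9.53% of the words of H2-D1 also occurred in other genes. Heavy chain alleles differ between mouse strains and mm10 is the C57BL/6 genome. How the alleles of these cells, or of 4T1, bear on the counts of H2-K1 and H2-D1 was not tested.

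The promoters of the heavy chains, B2m and the Tap1 and Psmb9 pair are shown because these members varied together over the classes below and share letters at their starts. RefSeq (GRCm38.p6) start sites were matched for 8 members, with none for Tap2 and Nlrc5. The lines give the strand read in the direction of transcription up to the base before the start site, in lower case, with searched motifs in capitals: the kB consensus known from NF-kB, the interferon regulatory factor core TTTCNNTT, the CRE-like letters TGACG and the Y box CCAAT, on either strand.
H2-K1 (chr17:34000348-34000597, minus strand): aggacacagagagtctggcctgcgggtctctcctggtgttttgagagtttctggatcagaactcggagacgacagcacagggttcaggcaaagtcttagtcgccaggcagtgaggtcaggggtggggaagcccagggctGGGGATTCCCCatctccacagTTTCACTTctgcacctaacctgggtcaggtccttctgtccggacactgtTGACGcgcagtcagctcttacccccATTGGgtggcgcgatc
H2-D1 (chr17:35262844-35263093, plus strand): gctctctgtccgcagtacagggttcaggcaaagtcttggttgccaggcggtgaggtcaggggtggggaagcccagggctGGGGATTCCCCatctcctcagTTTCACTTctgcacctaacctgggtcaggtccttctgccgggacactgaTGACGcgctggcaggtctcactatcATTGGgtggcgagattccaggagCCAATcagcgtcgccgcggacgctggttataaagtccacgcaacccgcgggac
B2m (chr2:122147437-122147686, plus strand): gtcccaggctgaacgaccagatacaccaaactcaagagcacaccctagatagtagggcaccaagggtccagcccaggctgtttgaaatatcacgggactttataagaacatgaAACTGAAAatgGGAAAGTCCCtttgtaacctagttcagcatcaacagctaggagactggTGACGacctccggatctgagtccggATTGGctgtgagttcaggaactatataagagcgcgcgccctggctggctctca
Tap1 with Psmb9 (chr17:34187331-34187555, plus strand, read towards Tap1): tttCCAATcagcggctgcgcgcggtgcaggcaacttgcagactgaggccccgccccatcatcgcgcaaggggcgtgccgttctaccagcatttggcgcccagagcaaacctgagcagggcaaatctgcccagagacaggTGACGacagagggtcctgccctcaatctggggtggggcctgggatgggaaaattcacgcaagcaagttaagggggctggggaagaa
The H2-K1 and H2-D1 windows aligned over 177 bases with 161 identical, or 91.0%. Both and B2m hold the kB consensus, found in 7.25% of 32851 windows of the same length, as 2 overlapping matches in each heavy chain. All 3 also hold the interferon regulatory factor core, present in 21.3% of windows. The CRE-like letters, in 17.8% of windows, and the Y box, in 33.8%, occur in H2-K1, H2-D1, B2m and the stretch between Tap1 and Psmb9, and the Y box also in Tapbp. Tap1 and Psmb9 start 225 bases apart on opposite strands, so the stretch shown is the upstream sequence of both. The Psmb8 and Psmb10 windows, not shown, held none of the motifs marked in capitals, although both members also varied with the others over the classes. A match is a run of letters and is not evidence of binding.

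Levels of the presenting molecule were highest in capillary-like cells in both libraries, with pericyte-like cells beside them in Cherry_Positive, and lowest in airway cells of Cherry_Negative, the library that held at least 20 of them. In Cherry_Negative, H2-D1 stood at 7545 CPM in Car4 capillary-like cells (capillary endothelium marked by Car4) and at 7264 in general capillary-like cells. The lowest H2-D1 level, 446.8 (350 to 562), was in club or ciliated-like cells of the airway, of which there were 20. H2-K1 spanned 140.8 to 2836 CPM over the 13 classes of Cherry_Negative with at least 20 cells, a 20.1-fold range, with the same classes at the ends as for B2m apart from the highest, which was Car4 capillary-like for B2m at 6993. Alveolar type 2 (AT2)-like cells had 752 CPM of B2m against 582 of H2-K1 in that library. Surfactant genes took 288068 CPM of these cells, which lowers the level of every other gene on this scale.

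**Figure D1:**
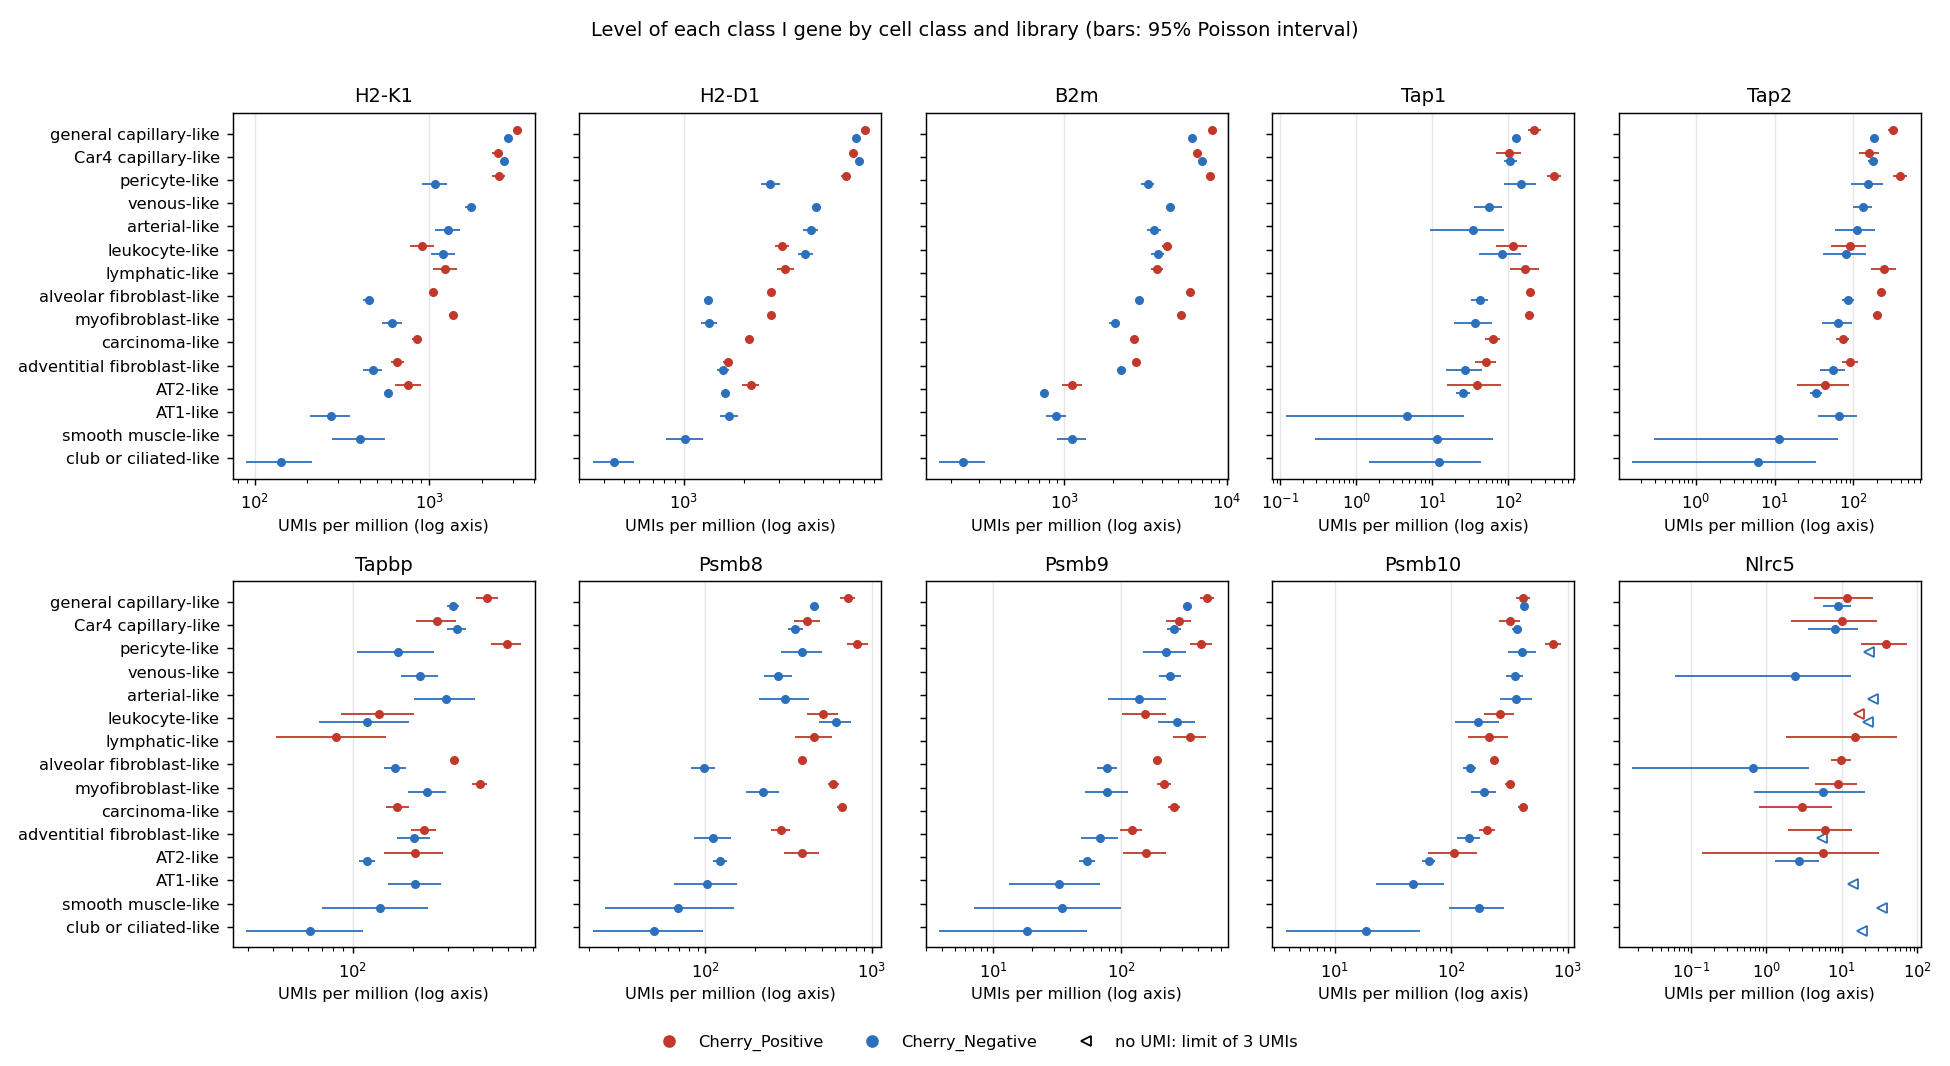
Level of each of the 10 members by cell class (vertical axis) in CPM on a log axis, in Cherry_Positive (red) and Cherry_Negative (blue), for classes with at least 20 cells in the library. Points are class sums, bars are 95% Poisson intervals, and open triangles mark a level of 0 at the limit of 3 UMIs. Capillary-like cells hold the top of H2-K1, H2-D1 and B2m, at up to 3195, 8075 and 8108, and club or ciliated-like cells of Cherry_Negative the bottom.

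In Cherry_Positive the order was similar at the top. General capillary-like cells led all 10 classes with at least 20 cells for H2-K1 at 3195, H2-D1 at 8075 and B2m at 8108 CPM, followed for B2m by pericyte-like cells at 7883, whose interval overlapped. Adventitial fibroblast-like cells had the lowest H2-K1 at 654 and H2-D1 at 1655, and AT2-like cells the lowest B2m at 1121. Neighbours in the order did not always stand apart: for H2-K1, 7 of 9 neighbouring pairs had overlapping intervals, for H2-D1 4 of 9 and for B2m 3 of 9. For Tap1, Tap2, Tapbp, Psmb8 and Psmb9 at least 8 of 9 pairs overlapped, so their order is known only in outline.

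The balance of heavy chain to light chain transcripts differed between lineages. A 3' UMI does not scale with transcript length, so the share of H2-K1 and H2-D1 in the sum with B2m can be set side by side between classes. It was 38.0% (36.9 to 39.1) in alveolar fibroblast-like cells of Cherry_Negative and 39.0% (38.6 to 39.5) in those of Cherry_Positive. In general capillary-like cells it was 62.5% and 58.2%, and in AT2-like cells 74.5% and 72.3%, in the same order of libraries. Carcinoma-like cells lay between, at 52.7% (51.6 to 53.8), as did pericyte-like cells of the same library at 53.2% (51.6 to 54.8). Fibroblast-like, capillary-like and AT2-like cells kept this order in both libraries. The share of H2-K1 among heavy chain UMIs was narrower, from 22.7% to 33.4% in all classes but alveolar type 1 (AT1)-like cells, where it was 13.9% (10.7 to 17.6) on 418 UMIs.

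Nlrc5 was scarce, with 88 UMIs in Cherry_Positive and 48 in Cherry_Negative over all barcodes. Its highest level in a class with at least 20 cells was 38.8 CPM (9 UMIs), in pericyte-like cells of Cherry_Positive. Cluster 13 of Cherry_Negative stood at 44.8 CPM (7 UMIs). No UMI of Nlrc5 was seen in 7 of the 13 classes of Cherry_Negative, pericyte-like and adventitial fibroblast-like cells among them, or in leukocyte-like cells of Cherry_Positive. At this depth its order over classes was not detectable, since all 9 and all 12 neighbouring pairs overlapped.

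Between the libraries, all 10 members were higher in Cherry_Positive in alveolar fibroblast-like cells, the resident lipid-handling fibroblasts of the alveolar wall. There were 865 in Cherry_Positive and 451 in Cherry_Negative. B2m stood at 5904 CPM (5833 to 5975 by counting) in Cherry_Positive and 2893 in Cherry_Negative, a ratio of 2.04 (1.98 to 2.11). H2-D1 was at 2735 and 1324, a ratio of 2.07 (1.97 to 2.17), and H2-K1 at 1045 and 448, a ratio of 2.33 (2.15 to 2.53). H2-D1 and B2m were thus about equally higher in Cherry_Positive, and the interval of H2-K1 lay above that of B2m.

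The genes of peptide supply spread more widely in the same cells. Tap1 stood at 193 and 42.0 CPM, a ratio of 4.59 (3.56 to 6.01), against 2.62 (2.19 to 3.18) for its partner Tap2 and 1.99 (1.74 to 2.28) for Tapbp. Psmb8 stood at 383 and 97.7, a ratio of 3.93 (3.32 to 4.67), against 2.43 (2.01 to 2.97) for Psmb9 and 1.61 (1.39 to 1.87) for Psmb10. The intervals of Tap1 and Tap2 do not overlap, nor do those of the 3 immunosubunits, although Tap1 and Tap2 act as 1 transporter. Nlrc5 had 45 UMIs and 1 UMI, a ratio of 15 with an interval of 2.57 to 607. Of the 10 members, 8 were at least 2-fold higher in Cherry_Positive, where 7.74% of the 11394 genes with at least 10 UMIs were, and none was 2-fold lower, where 8.67% were. The median log2 ratio was 1.25 for the members and -0.08 for all genes.

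The size of that difference depended on whether cluster 7 was counted. The class holds clusters 1, 6, 7 and 9, and cluster 7, led by the chemokine genes Cxcl9, Cxcl10, Ccl2 and Ccl7 with Rsad2 and Ifit2, held 286 of the 865 Cherry_Positive cells and 7 of the 451 Cherry_Negative cells. In cluster 7 of Cherry_Positive B2m reached 9656 CPM, H2-D1 4801, Tap1 409 and Psmb8 759. In cluster 1 of the same library, led by alveolar fibroblast markers such as Tcf21 and Slc7a10, these were 3449, 1512, 68.8 and 136. The clusters were made from all variable genes, so the gap between clusters is a description and no result.

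Cells compared within a cluster differed less than the class for most members. In cluster 1 B2m was at 3449 and 2804 CPM in Cherry_Positive and Cherry_Negative, a ratio of 1.23 (1.16 to 1.30), H2-D1 had a ratio of 1.20 (1.10 to 1.30), Psmb8 1.86 (1.36 to 2.55) and Tap1, at 68.8 and 36.2 CPM, 1.90 (1.21 to 3.0), and 5 intervals in all lay above 1. In cluster 6 B2m had a ratio of 1.37 (1.28 to 1.46), and H2-D1 at 1.07 (0.97 to 1.18) and H2-K1 at 1.09 (0.93 to 1.28) had intervals that include 1. The median log2 ratio of the members was 0.26 in cluster 1 and 0.35 in cluster 6. With cluster 7 left out of the class, the median was 0.25 in place of 1.25, no member was 2-fold higher, and Psmb9 had a log2 ratio of -0.02. This removal was chosen after the clusters had been seen. It took out the cluster with the highest levels in the class, so a lower median was largely fixed in advance. Whether the mix of cells or a change within cells gave the difference was not tested.

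**Figure D2:**
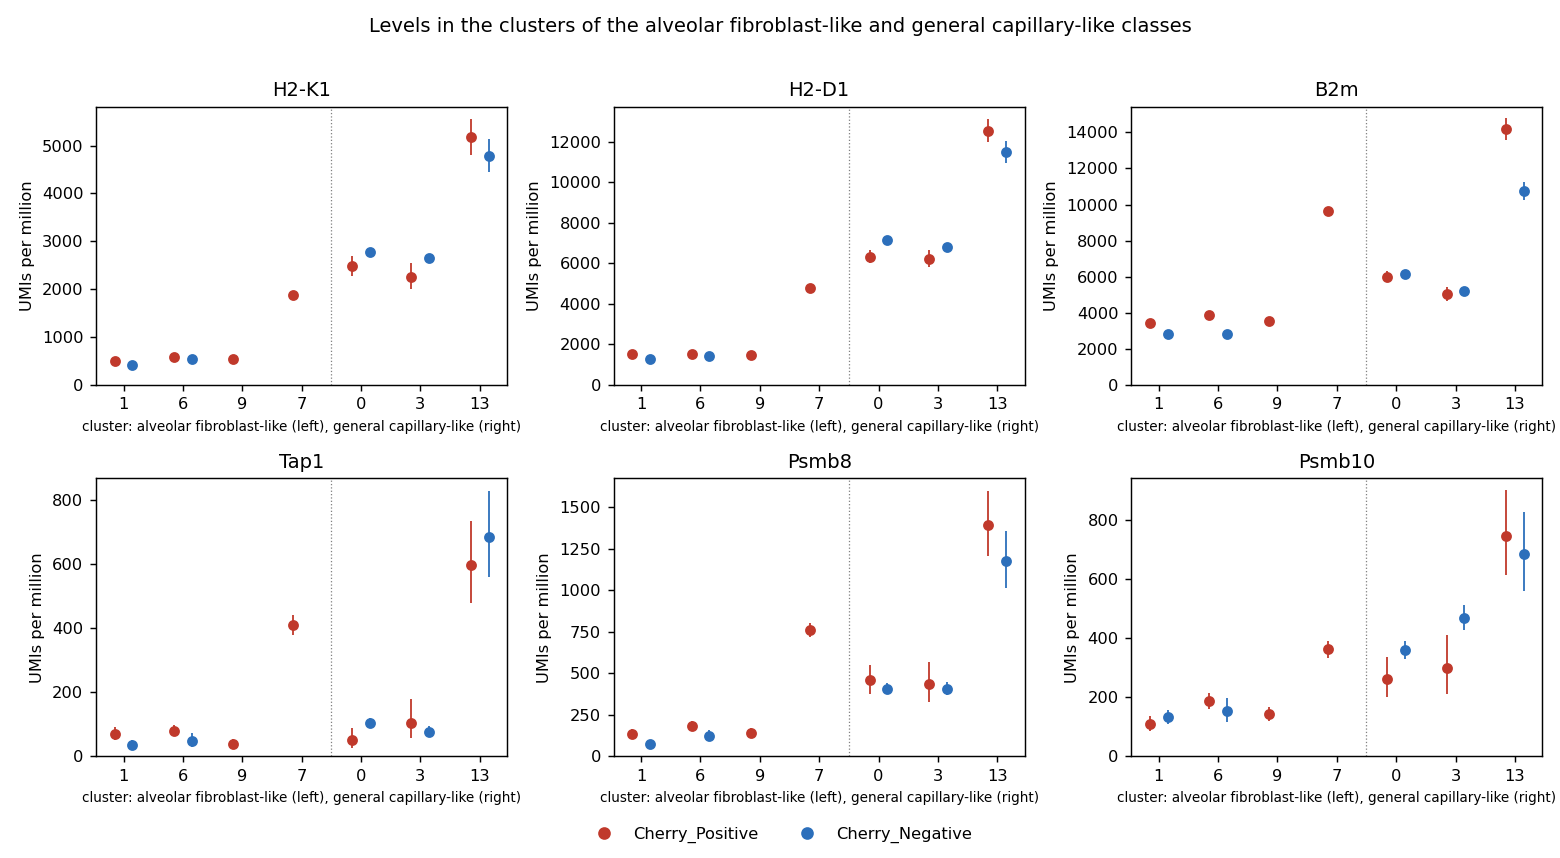
Levels of 6 members (CPM, linear axes from 0) in the clusters of the alveolar fibroblast-like class (1, 6, 9, 7) and the general capillary-like class (0, 3, 13), in Cherry_Positive (red) and Cherry_Negative (blue), with 95% Poisson intervals, for clusters with at least 20 cells in the library. Clusters 7 and 13 stand above the other clusters of their class, with B2m at 9656 in cluster 7 and at 14193 and 10746 in cluster 13.

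Myofibroblast-like cells, contractile fibroblasts marked by Aspn and Hhip, numbered 243 and 133, all in cluster 5. At resolution 0.5 no cluster bore this name, nor did any of Cherry_Negative with the libraries clustered separately. B2m stood at 5216 CPM in Cherry_Positive and 2037 in Cherry_Negative, a ratio of 2.56 (2.37 to 2.77), and Tap1 at 188 and 36.1, a ratio of 5.21 (2.99 to 9.94). Of the 10 members, 7 were at least 2-fold higher, where 8.50% of genes were, with a median log2 ratio of 1.25 against -0.15 for all genes. Summed endothelial markers were at 72.1 CPM in Cherry_Positive and 736 in Cherry_Negative in this class, and their part was not tested. The gap sat in the upper cells. After each cell was thinned to 2000 UMIs, the members' UMIs per cell had a 10th percentile of 3 in both libraries, a median of 9 against 6 and a 90th percentile of 52.9 against 16, in 242 and 97 cells deep enough.

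Pericyte-like cells, the mural cells of capillaries, numbered 63 and 50. B2m was at 7883 and 3262 CPM, a ratio of 2.42 (2.17 to 2.69), H2-D1 at 6456 and 2717, a ratio of 2.38 (2.11 to 2.68), and Tapbp at 591 and 169, a ratio of 3.5 (2.22 to 5.77). In this class Psmb10 reached 746, its highest level in any class of either library with at least 20 cells. Nlrc5 had 9 UMIs against 0, which is at least 1.69-fold higher when 3 UMIs stand in for the 0. Of 9 members with enough UMIs, 7 were at least 2-fold higher, where 9.93% of genes were, and the median log2 ratio was 1.25 against -0.13 for all genes. The thinned count per cell had a median of 31 in 61 cells and 8 in 27 cells. Summed endothelial markers also differed in this class, at 181 CPM in Cherry_Positive and 2318 in Cherry_Negative, on the side with the lower members, and their part was not tested.

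Adventitial fibroblast-like cells, the fibroblasts around larger vessels and airways, numbered 126 and 114 and differed less. H2-D1 was at 1655 and 1576 CPM, a ratio of 1.05 (0.96 to 1.14), and B2m at 2741 and 2238, a ratio of 1.22 (1.14 to 1.31). Psmb8 was at 284 and 112, a ratio of 2.54 (1.92 to 3.42), and was the 1 member of 9 measured at least 2-fold higher, where 5.74% of genes were. The median log2 ratio was 0.50 against -0.06 for all genes. Thinned counts per cell had medians of 8 and 8.5.

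General capillary-like cells numbered 131 and 1000. H2-D1 was at 8075 and 7264 CPM, a ratio of 1.11 (1.07 to 1.15), B2m at 8108 and 6067, a ratio of 1.34 (1.29 to 1.38), and Tap2 at 322 and 182, a ratio of 1.77 (1.47 to 2.12). Psmb10 did not stand apart, at 410 and 420. None of the 10 members was at least 2-fold higher, where 4.21% of genes were, and the median log2 ratio was 0.51 against -0.07 for all genes. The intervals of 8 members lay above 1.

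Here the direction depended on whether cluster 13 was counted. Cluster 13, led by interferon-induced genes such as Ido1, Ubd, Gbp4 and Tgtp1, held 32 of the 131 and 57 of the 1000 cells, and it had the highest levels among the clusters of both classes, with H2-D1 at 12547 and 11488 CPM and Psmb8 at 1392 and 1177. In cluster 0 H2-D1 was instead lower in Cherry_Positive, at 6312 against 7152, and in cluster 3 at 6224 against 6789. The median log2 ratio was -0.13 in cluster 0, -0.05 in cluster 3 and 0.13 in cluster 13. Without cluster 13, chosen after the clusters had been seen, the class had a median of -0.14, and the log2 ratio turned below 0 for H2-K1 (-0.18), H2-D1 (-0.16), B2m (-0.03), Tap1 (-0.40) and Tapbp (-0.12). As cluster 13 had the highest levels and a larger part of the Cherry_Positive cells, a lower median without it was largely fixed in advance.

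Car4 capillary-like cells, 82 and 308 in number, showed no higher levels in Cherry_Positive. H2-D1 was at 7043 and 7545 CPM, a ratio of 0.93 (0.89 to 0.98), and B2m at 6562 and 6993, a ratio of 0.94 (0.89 to 0.99). The intervals of the other 8 members included 1. None was 2-fold higher, where 4.25% of genes were, and the median log2 ratio was -0.10 against 0.01 for all genes. The 6 classes did not all share the direction, and the difference between classes was not tested.

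**Figure D3:**
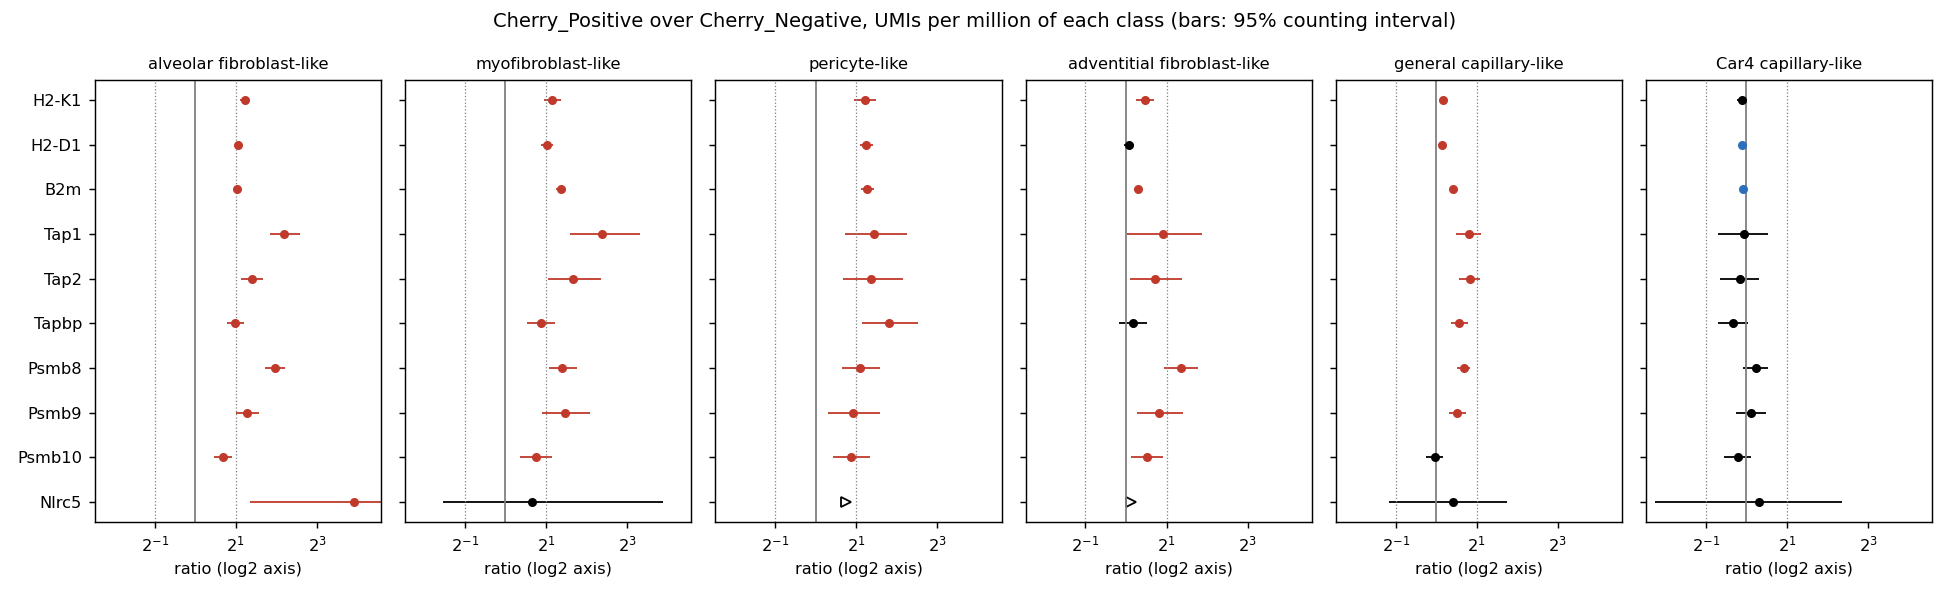
Ratio of Cherry_Positive to Cherry_Negative for each member (vertical axis) in the 6 compared classes (panels), on a log2 axis, with 95% counting intervals. Red intervals lie above 1, blue below 1 and black include 1, dotted lines mark 2-fold, open triangles are lower bounds for Nlrc5, and the bar of Nlrc5 in alveolar fibroblast-like cells runs to 607, past the axis. All members lie right of 1 in alveolar fibroblast-like, myofibroblast-like and pericyte-like cells, and H2-D1 and B2m lie left of 1 in Car4 capillary-like cells.

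The exchange of catalytic subunits was read as the share of an immunosubunit in the UMIs of its pair. In alveolar fibroblast-like cells Psmb8 made up 60.1% (58.3 to 61.9) of Psmb8 and Psmb5 in Cherry_Positive and 33.9% (29.5 to 38.5) in Cherry_Negative. Psmb9 made up 37.1% and 20.2% of Psmb9 and Psmb6, and Psmb10 60.1% and 52.9% of Psmb10 and Psmb7. The constitutive partners had ratios nearer 1, at 1.33 (1.17 to 1.52) for Psmb5, 1.04 (0.94 to 1.16) for Psmb6 and 1.20 (1.02 to 1.42) for Psmb7. Over the 3 pairs summed, the share was 52.4% and 33.7% in these cells, 60.1% and 44.1% in myofibroblast-like, 70.8% and 53.7% in pericyte-like, 49.7% and 38.0% in adventitial fibroblast-like and 67.4% and 61% in general capillary-like cells. In Car4 capillary-like cells, at 55.5% (51.2 to 59.8) and 53.3% (51.0 to 55.7), the intervals overlapped.

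The airway and AT1-like cells of Cherry_Negative had the lowest immunosubunit shares. The summed share was 14.9% in club or ciliated-like cells, 15.7% (11.4 to 20.9) in AT1-like cells, 24.7% (16.5 to 34.5) in smooth muscle-like cells and 32.8% (31.1 to 34.6) in the 448 AT2-like cells. The 22 AT2-like cells of Cherry_Positive had 60.7% (53.4 to 67.7), on 116 immunosubunit UMIs. Clusters 7 and 13 stood high in both libraries, with 78.6% and 78.3% in cluster 13 and 65.7% in cluster 7 of Cherry_Positive, and 63.5% on its 7 Cherry_Negative cells. Cluster 1 had 32.7% and 29.9%, with overlapping intervals.

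**Figure D4:**
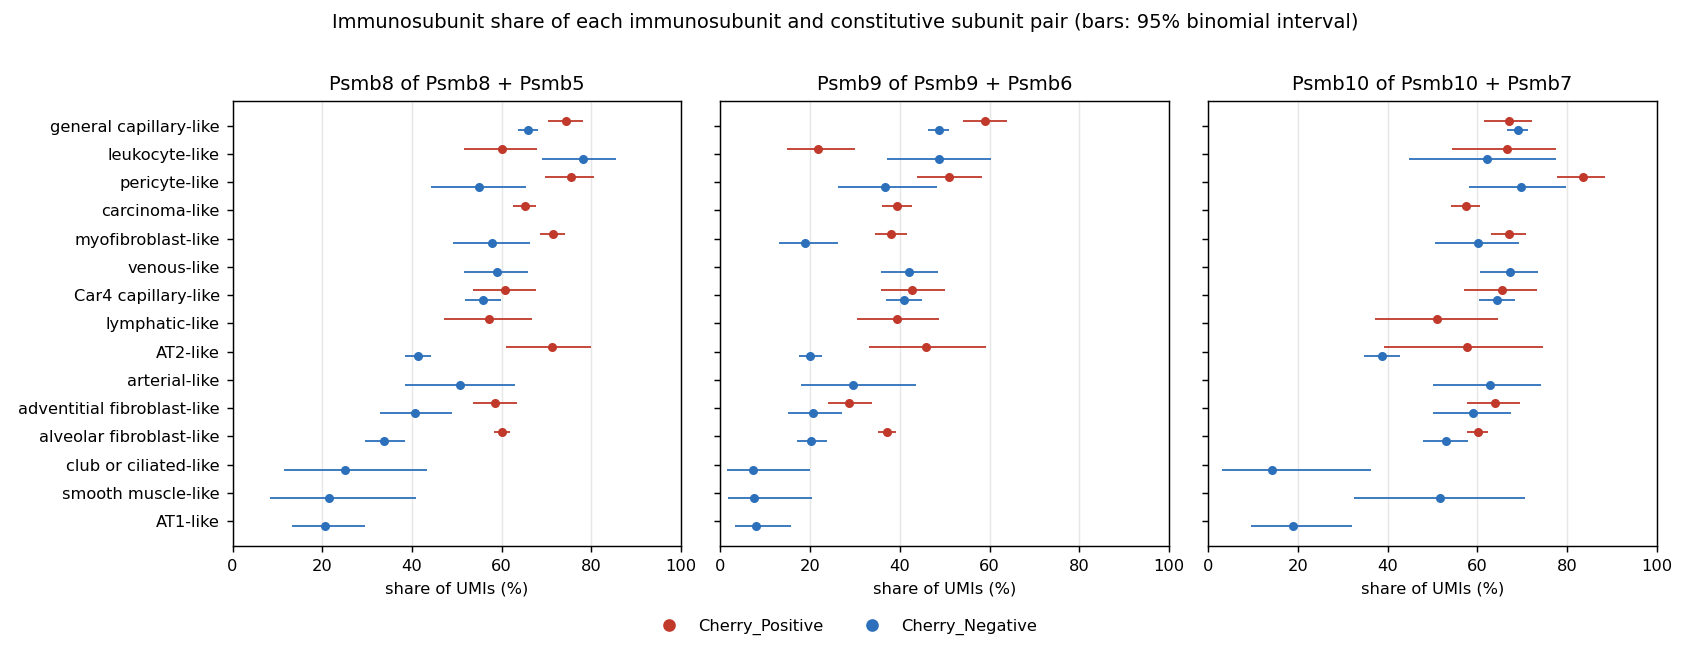
Share of UMIs (percent) taken by the immunosubunit in each pair of immunosubunit and constitutive subunit, by cell class (vertical axis), in Cherry_Positive (red) and Cherry_Negative (blue), with exact 95% binomial intervals. The Psmb8 share in alveolar fibroblast-like cells is 60.1% and 33.9%, and club or ciliated-like and AT1-like cells sit at the low end of all 3 panels.

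The carcinoma-like cells are cluster 10, with 130 cells in Cherry_Positive and 10 in Cherry_Negative. In the 130 cells Krt8 stood at 1062 CPM and was seen in 86.9% of cells, and Krt18 at 1026 in 83.1%, against 13.2 and 19.2 in the other cells of the library. Epcam at 69.3 in 14.6% of cells, Krt14 at 97.7 in 16.2% and Lgals7 at 185 in 18.5% were also present, and 6 of 11 markers of the class were detected. Other markers of that list were low. Cldn7 was at 17.5 in 9.2% of cells, Cldn4 at 8.02 in 3.1% and Cdh1 at 6.56 in 3.8%. Krt19 was at 29.2, against 17.1 in the other cells. Its leading genes also include cell cycle genes such as Birc5, at 299, and Ube2c. Emcn, Cd52, Laptm5 and Ptprc were at 0, Col1a1 was at 91.1 against 1202 in the other cells, and surfactant genes summed to 179. Other markers of these lineages were present. Sparc was at 678 in 70.8% of cells, against 3811 in the other cells, and Egfl7 at 42.3 in 21.5%, against 287. In all, 7 of 7 mesenchymal, 7 of 8 endothelial and 5 of 8 leukocyte markers were above 0. The labels do not say which cells are 4T1, so the name rests on these markers. Of the 10 Cherry_Negative cells only 50% had a Krt8 UMI and all had a Cldn5 UMI, a gene of endothelium, and their median depth was 13688 UMIs, so they are given as counts only: 268 UMIs of H2-K1, 638 of H2-D1 and 601 of B2m.

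In carcinoma-like cells of Cherry_Positive the presenting molecule stood in the lower part of the 10 classes, while the immunosubunits did not all do so. H2-K1 stood at 844 CPM (796 to 894), H2-D1 at 2132 (2055 to 2210) and B2m at 2673 (2587 to 2761). Psmb8 stood at 660 (617 to 704), Psmb10 at 408 (375 to 444) and Psmb9 at 258 (232 to 286). Tap1 was at 62.0, Tap2 at 73.6, Tapbp at 168 and Nlrc5 at 2.92 on 4 UMIs. A single cell gave 11.9% of the H2-K1 UMIs and 16.5% of the Tap1 UMIs.

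Set against general capillary-like cells of the same library, the heavy chains and B2m were low. H2-D1 was 3.79-fold lower (3.61 to 3.97), H2-K1 3.78-fold lower (3.51 to 4.08) and B2m 3.03-fold lower (2.90 to 3.17). Psmb8, at a ratio of 0.92 (0.81 to 1.04), and Psmb10, at 1.0 (0.85 to 1.17), had intervals that include 1. Of the 10 members 7 were at least 2-fold lower, where 31.5% of all genes were, and the median log2 ratio was -1.71 against -0.34 for all genes.

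Against alveolar fibroblast-like cells, all clusters of the class summed, the members split by role. B2m was 2.21-fold lower (2.13 to 2.29), H2-D1 1.28-fold lower (1.23 to 1.34), H2-K1 1.24-fold lower (1.16 to 1.32), Tap1 3.11-fold lower (2.49 to 3.93) and Tap2 3.04-fold lower (2.47 to 3.77). Psmb10 was 1.77-fold higher (1.59 to 1.96), Psmb8 1.72-fold higher (1.59 to 1.87) and Psmb9 1.36-fold higher (1.20 to 1.54). The class sum includes cluster 7. In clusters 1, 6 and 9 of Cherry_Positive, H2-D1 stood at 1512, 1520 and 1448 CPM and H2-K1 at 498, 582 and 535. These levels were below those of carcinoma-like cells. B2m, at 3449, 3864 and 3541, was above the carcinoma-like level, and Tap1, at 68.8, 79.6 and 40.0, lay on both sides of it. Of the members 4 were at least 2-fold lower, near the 36.5% of all genes that were, and none was 2-fold higher, where 13.4% of genes were.

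Against pericyte-like cells all 10 intervals lay below 1 and 7 members were at least 2-fold lower, where 31.1% of genes were, with Tap1 6.40-fold lower (4.72 to 8.70). Psmb8, 1.24-fold lower there (1.06 to 1.45), turned to a log2 ratio of 0.30 under trimmed-mean scaling and of 0.02 without mitochondrial and ribosomal genes. Against myofibroblast-like cells 4 were at least 2-fold lower, where 28.1% of genes were, and against Car4 capillary-like cells 4, where 32.6% were. Against adventitial fibroblast-like cells B2m was level at a ratio of 0.98 (0.93 to 1.03), and Psmb8 at 2.32 (2.01 to 2.69), Psmb9 at 2.14 (1.71 to 2.69) and Psmb10 at 2.02 (1.70 to 2.41) were the 3 members at least 2-fold higher, where 16.9% of genes were. That count was 0 when cells were thinned to 2000 UMIs or averaged with equal weight. Under trimmed-mean scaling 1 member and not 4 was 2-fold lower than in Car4 capillary-like cells, and with the libraries clustered separately none was 2-fold lower than in myofibroblast-like cells. In all 6 of these comparisons, each of Psmb8, Psmb9 and Psmb10 had a higher ratio than each of H2-K1, H2-D1 and B2m. The 22 AT2-like cells of Cherry_Positive were an exception: against them B2m had a ratio of 2.39 (2.07 to 2.76), above Psmb8 at 1.72 (1.35 to 2.24) and Psmb9 at 1.66 (1.13 to 2.54).

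**Figure D5:**
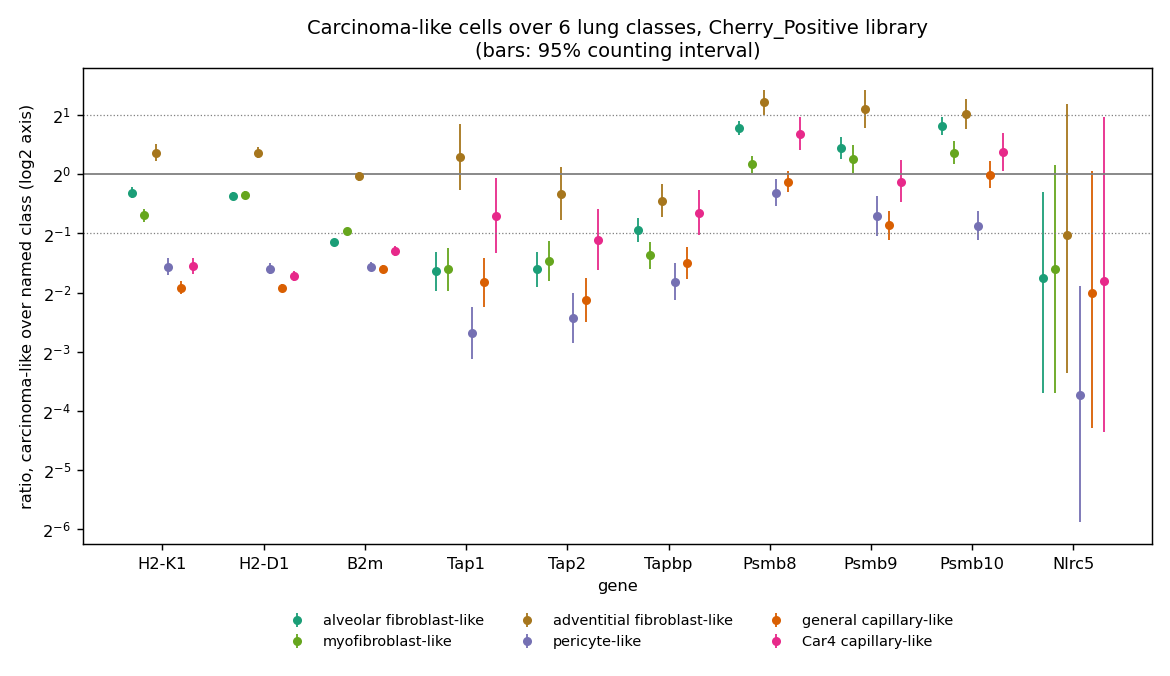
Ratio of the carcinoma-like cells to each of 6 lung classes in Cherry_Positive (colours) for each member, on a log2 axis with 95% counting intervals and dotted lines at 2-fold. Psmb8, Psmb9 and Psmb10 sit above H2-K1, H2-D1 and B2m for each of the 6 classes drawn, which leave out AT2-like cells, and Psmb8 is 1.72-fold higher than in alveolar fibroblast-like cells where B2m is 2.21-fold lower.

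Within carcinoma-like cells, immunosubunits made up 30.8% (29.6 to 32.0) of the UMIs of immunosubunits and heavy chains together, above every other class, the highest of which was myofibroblast-like cells of Cherry_Positive at 21.5% (20.5 to 22.5). The summed immunosubunit share over the constitutive partners, 55.7% (54.0 to 57.4), was by contrast inside the range of the stromal classes, and Psmb5, Psmb6 and Psmb7 were themselves 1.39-fold, 1.24-fold and 1.97-fold higher than in alveolar fibroblast-like cells. The other subunits of the 20S core were also higher than in alveolar fibroblast-like cells in 11 of 11 cases. Of these, 2 were at least 2-fold higher, where 13.4% of all genes were, among them Psma7 at a ratio of 2.07 (1.93 to 2.21). Against alveolar fibroblast-like cells the median log2 ratio of that list was 0.66, and of the 17 subunits of the 19S cap 0.36, beside -0.45 for all genes.

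Single carcinoma-like cells varied widely. After thinning to 2000 UMIs, the members' UMIs per cell ran from a 10th percentile of 2 through a median of 8 to a 90th percentile of 32 in 129 cells. In 12.4% (7.26 to 19.4) of them neither H2-K1 nor H2-D1 had a UMI, against 7.67% (5.97 to 9.68) of alveolar fibroblast-like cells, with overlapping intervals, and in 0 of 124 general capillary-like cells, an upper bound of 2.93%. The share without either was 6.92%, 11.3%, 13.4% and 1.42% in fibroblast clusters 1, 6, 9 and 7 of Cherry_Positive. Tap1 was seen in 5.43% (2.21 to 10.9) of thinned carcinoma-like cells and 24.6% (21.7 to 27.6) of thinned alveolar fibroblast-like cells, or 21.5% and 38.4% unthinned, and Psmb8 in 45.7% (36.9 to 54.7) and 38.7% (35.4 to 42.1), or 72.3% and 56.4% unthinned. The unthinned share for Tap1 was 19.3%, 25.6% and 18.2% in clusters 1, 6 and 9 of Cherry_Positive and 73.1% in cluster 7. No class is known to lack these genes. The lowest shares, in 19 thinned club or ciliated-like cells, were 31.6% for B2m and 63.2% for H2-D1. Across the 129 cells H2-K1 and H2-D1 correlated with a Pearson r of 0.71, Psmb8 and Psmb9 with 0.52, and B2m and Psmb8 with 0.27. These correlations are over cells of 1 library at a fixed depth and are descriptions.

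Other genes of the pathway were set beside the members. Among non-classical class I genes, whose close copies make their counts uncertain, 4 of 9 measured were at least 2-fold higher in alveolar fibroblast-like cells of Cherry_Positive and none 2-fold lower, beside 7.74% and 8.67% of all genes. H2-Q4 stood at 343 and 119 CPM, a ratio of 2.87 (2.46 to 3.37), and H2-T23, the ligand of an inhibitory receptor of natural killer cells, at a ratio of 2.40 (2.12 to 2.72). H2-T23 was also higher in pericyte-like cells, at a ratio of 4.0 (2.80 to 5.87), and in myofibroblast-like cells at 3.33 (2.49 to 4.56), and lower in Car4 capillary-like cells at 0.77 (0.62 to 0.94). Fcgrt, the neonatal Fc receptor, was lower in alveolar fibroblast-like cells at 0.76 (0.66 to 0.87).

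Of the proteasome activator genes, Psme1 had ratios of 1.88 (1.66 to 2.15) in alveolar fibroblast-like, 2.06 (1.59 to 2.71) in myofibroblast-like, 2.30 (1.57 to 3.45) in pericyte-like and 0.95 (0.77 to 1.17) in Car4 capillary-like cells. Of the list of activators and assembly factors, none of 9 was at least 2-fold higher in alveolar fibroblast-like cells. None of the 14 other loading and trimming genes, such as Calr and Canx, was 2-fold higher or lower there either, and none of the 11 other 20S core genes or the 17 genes of the 19S cap. Over all genes, 7.74% were 2-fold higher and 8.67% 2-fold lower there. In lists this short, a count of 0 is near those shares. The subunits common to both kinds of proteasome had ratios nearer 1 than the immunosubunits, with list medians of 0.39 and 0.30 in log2 against 1.28 for the 3 immunosubunits.

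Regulators of class I were mixed. In alveolar fibroblast-like cells 3 of 22 were at least 2-fold higher and none 2-fold lower, beside 7.74% and 8.67% of all genes, with a list median of 0.06. Among them Nfkb2, a subunit of NF-kB, had a ratio of 2.62 (1.86 to 3.80) and Relb, its partner, 2.24 (1.67 to 3.06). Rfxank was lower at 0.54 (0.33 to 0.89). Among interferon ligands, receptors and signalling genes, 3 of 10 measured were at least 2-fold higher there and 1 was 2-fold lower, beside the same 7.74% and 8.67% of all genes. Socs1, an inhibitor of interferon signalling, had a ratio of 3.46 (2.80 to 4.32) in alveolar fibroblast-like, 3.01 (2.01 to 4.46) in general capillary-like and 6.93 (3.04 to 19.5) in pericyte-like cells. Ifngr1, a chain of the interferon gamma receptor, was lower in alveolar fibroblast-like cells at 0.62 (0.56 to 0.67).

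In carcinoma-like cells the signalling genes were low beside alveolar fibroblast-like cells. Of 10 measured, 8 were at least 2-fold lower and none higher, with Ifngr1 at 27.0 and 296 CPM, a ratio of 0.09 (0.06 to 0.13), and Ifnar2 at 0.17 (0.12 to 0.22). Of 22 regulators 9 were at least 2-fold lower, among them Irf8 at a ratio of 0.14 (0.10 to 0.19), and Ezh2, a repressive histone methyltransferase, was the only one 2-fold higher at 3.48 (2.24 to 5.42). Both counts of lower genes are to be read beside the 36.5% of all genes that were 2-fold lower. The counts of higher genes are to be read beside the 13.4% that were 2-fold higher.

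Across the 23 sums of a class in a library with at least 20 cells, the members varied together. The Pearson correlation of each member with the mean of the others on log2 levels was between 0.87 and 0.94 for 8 members and lowest for Tapbp (0.67) and Nlrc5 (0.67). Of 6051 genes at 20 or more CPM, the 10 outside the set most like the mean of the members were H2-Q4 (0.95), H2-T23 (0.95), Herc6 (0.93), Bst2 (0.92), Gbp4 (0.91), H2-T22 (0.90), Irf1 (0.90), Idnk (0.89), Ifi47 (0.89) and Parp14 (0.89). The sums share libraries and depth, and the values carry no p-value.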

How the data were processed

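Single-cell RNA was measured in 2 libraries, 1 per group. The deposited values are whole-number UMI counts per gene and barcode, not normalized. Per the submitters' processing notes, the authors used Cell Ranger 2.1.1, R 4.0.3, Seurat 4.0.2 and mm10. Depth was 10094853 and 11632459 UMIs.

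Cells with at least 500 genes and at most 10% mitochondrial UMIs were kept, and Scrublet, at an expected rate of 2%, removed 4 and 7 doublets (0.226% and 0.249%), so doublets may remain. Both libraries were clustered together without integration (scanpy 1.11.5, leidenalg 0.10.2: 2000 variable genes, 30 components, 15 neighbours, resolution 1). Clusters were named from marker lists, with the naming thresholds set after the clusters had been seen, so a class may differ from the authors' own. Counts were summed per class and library and divided by the class total. Levels have exact Poisson intervals, ratios conditional exact binomial intervals and shares Clopper-Pearson intervals, all at 95%. Log2 ratios add 0.5 UMIs per side. Fold counts cover genes with at least 10 UMIs over both sides, and a level of 0 has a floor of 3 UMIs. For shares of cells, each cell was thinned to 2000 UMIs. The ratio and interval steps were tested on simulated class sums with Poisson counting error only. That simulation held no spread between cells or libraries, so it does not cover either.

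All members were named. Other pathway genes were named if they held at least 30 UMIs in a comparison, up to 3 per list and direction by the interval bound nearest 1, with lists of up to 4 genes whole, and the 10 genes most like the members. A gene that this rule names, and a motif searched, are not reported here. The members and lists were chosen with earlier results of these data known. Of the listed genes, 4 symbols found no match and 1 symbol was shared by several entries. Gene positions are from GENCODE M21 and promoters from RefSeq GRCm38.p6. The alternatives covered cell filters, doublets, clustering, scaling, free RNA, weighting of cells, thinning, minimum UMIs, pseudocount and fold.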

Additional observations from a re-analysis of the deposited data

Results flagged for a closer look

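B2m and H2-D1 differed between the libraries in opposite directions in different cell classes. The ratio of Cherry_Positive to Cherry_Negative for B2m was 0.938 in Car4 capillary-like cells, with an interval below 1, and lay above 1 elsewhere, at 1.22 in adventitial fibroblast-like, 1.34 in general capillary-like, 2.04 in alveolar fibroblast-like, 2.42 in pericyte-like and 2.56 in myofibroblast-like cells. For H2-D1 it was 0.934 in Car4 capillary-like cells and 1.11 in general capillary-like, 2.03 in myofibroblast-like, 2.07 in alveolar fibroblast-like and 2.38 in pericyte-like cells. With 1 library per group the difference between classes was not tested, and the intervals cover counting error only. Without cluster 13 the general capillary-like ratios of both genes also turned below 1.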

How the results depend on the processing

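Over the alternatives that gave a value, 76 medians of the members between libraries stayed within their interval, 7 moved out of it and 1 moved out of it with a change of sign. The interval used here is the mean of the counting intervals of the member or members in the middle of the order, not an interval of the median itself. The 76 include the general capillary-like median. Its interval in this sense is wide and spans 0, although those of 8 members lay above 1. This median also changed sign, from 0.51 to -0.14, without cluster 13. For carcinoma-like cells against another class the numbers were 65, 17 and 1. The other medians to change sign were those of Car4 capillary-like cells (0.036) and carcinoma-like over myofibroblast-like cells (0.048, with H2-K1 at 0.048 and H2-D1 at 0.33), both with the libraries clustered separately. Without cluster 7, an alternative chosen after seeing the data, the alveolar fibroblast-like median was 0.25, Psmb9 was at -0.018 and the count past 2-fold was 0 in place of 8. Without cluster 13, also chosen then, 5 general capillary-like log2 ratios changed sign, with H2-K1 at -0.18, H2-D1 at -0.16, B2m at -0.028, Tap1 at -0.40 and Tapbp at -0.12.

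Trimmed-mean scaling shifted all log2 ratios by 0.12 in alveolar fibroblast-like, 0.20 in myofibroblast-like and 0.26 in pericyte-like cells, and by 0.21 to 0.61 in the carcinoma-like comparisons. Under it the median was 1.45 in myofibroblast-like and 1.51 in pericyte-like cells, and for carcinoma-like cells 0.65 over adventitial fibroblast-like, -0.39 over alveolar fibroblast-like, -1.26 over general capillary-like, -0.61 over myofibroblast-like and -0.97 over pericyte-like cells, where Psmb8 turned to 0.30. Without mitochondrial and ribosomal protein genes these 5 medians were 0.58, -0.37, -1.46, -0.61 and -1.25, with Psmb8 over pericyte-like cells at 0.018. As a mean over cells, the median was 1.47 in pericyte-like cells, and for carcinoma-like cells 0.070 over adventitial fibroblast-like, -0.82 over alveolar fibroblast-like, -0.66 over myofibroblast-like and -1.86 over pericyte-like cells. Thinning gave 1.08 in myofibroblast-like cells, 0.17 for carcinoma-like over adventitial fibroblast-like cells and -0.52 over myofibroblast-like cells, with Psmb8 there at -0.040. Leaving out the cell with most UMIs gave 1.53 in myofibroblast-like and 1.48 in pericyte-like cells. A minimum of 30 UMIs gave -0.69 for carcinoma-like over myofibroblast-like cells. The causes were not tested.

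Of the counts past 2-fold, that in adventitial fibroblast-like cells went from 1 to 2 or 3, that for carcinoma-like under Car4 capillary-like cells from 4 to 1 under trimmed-mean scaling, that under pericyte-like cells from 7 to 4, and that over adventitial fibroblast-like cells from 3 to 0 by thinning or by a mean over cells. With the libraries clustered separately, 1 was higher than in adventitial fibroblast-like cells, and 2 were higher and 0 in place of 4 lower than in myofibroblast-like cells. Over alveolar fibroblast-like cells 2 in place of 0 were higher under trimmed-mean scaling or without mitochondrial and ribosomal protein genes. The myofibroblast-like comparison between libraries gave no value at resolution 0.5 or with the libraries clustered separately. At resolution 0.5 no cluster bore that name, and 249 and 153 cells were named smooth muscle-like. With separate clustering, 209 and 0 cells were myofibroblast-like, and 40 and 156 smooth muscle-like. The name thus depended on the clustering. The change of sign for carcinoma-like over myofibroblast-like cells came with these 209 cells in place of 243. No paired analysis was possible because each group has 1 library, and the labels give no replicate numbers that pair them. Depth limits Nlrc5 most, with 88 and 48 UMIs.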

Other observations

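Class II genes present peptides to helper T cells. Most were higher in carcinoma-like cells of Cherry_Positive than in the summed alveolar fibroblast-like class, where H2-K1, H2-D1 and B2m were lower. Not all of class I went that way. Psmb8, Psmb9 and Psmb10 were higher in carcinoma-like cells, as were H2-K1 and H2-D1 when set against clusters 1, 6 and 9 of the class. Of 6 class II genes measured, 5 were at least 2-fold higher than in alveolar fibroblast-like cells of the same library, where 13.4% of all genes were, with H2-Eb1 at 99.2 and 15.1 CPM (UMIs of the gene per 1000000 UMIs of the class), a ratio of 6.56 (4.87 to 8.89), and H2-Aa at a ratio of 3.90 (3.04 to 5.01). Summed leukocyte markers stood at 13.1 and 8.11 CPM in these cells. In the carcinoma-like cells Ptprc, Cd52 and Laptm5 were at 0, and 5 of the 8 leukocyte markers were above 0. Cd274, which encodes the inhibitory ligand PD-L1, had 214 UMIs in alveolar fibroblast-like cells of Cherry_Positive and 3 in those of Cherry_Negative, or 46.9 and 1.97 CPM. The ratio was 23.8 (8.05 to 117). In general capillary-like cells Cd274 stood at 143 and 25.9, a ratio of 5.54 (3.93 to 7.80), and it is among the leading genes of cluster 13.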
